A study of Mus musculus with 6 samples.

Results

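Mesothelial cells form the single-layered sheet that covers the lung as the visceral pleura and lines the chest wall facing it. They keep keratins and apical membrane glycoproteins, which are epithelial traits, but they derive from mesoderm and keep the transcription factor Wt1, which marks this lineage in development. In a whole-lung extract they are a thin surface layer among many other cells. In bulk RNA, fewer cells of a type and less RNA per cell cannot be told apart, and this applies to every value that follows.

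The mesothelial genes were a named set, chosen with earlier results of these data known. Msln, Muc16, Upk3b, Upk1b, Wt1 and Lrrn4 were 6 of the 20244 genes tested, and they had 7 probes of the 41144 kept. For each gene the probe with the highest mean signal was used. The array files carry 4 of the genes under these symbols, while Lrrn4 (B430119L13Rik in the files) was found by accession and Muc16 (1110008I14Rik in the files) by synonym, both in a RefSeq gene table. The lungs came from untreated male mice aged 8 weeks, 3 of them Nogo-A/B knockouts (numbered 1, 11 and 12) and 3 wild type (numbered 11, 12 and 13). The knockout removes Nogo-A and Nogo-B, membrane proteins made from the reticulon gene Rtn4, and no cell type restriction or strain is given in the sources used here. Each lung RNA was labelled with Cy3 and hybridised to its own 1-colour array of 60-base probes, and the series describes the 3 lungs of a group as separate biological replicates. With 3 arrays a group, the array number bounds the precision throughout.

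Values are log2 of the scanner's processed signal minus the 75th percentile of the same array, so 0 is the 75th percentile of that array, and levels of different probes are not set against each other. Per array, 68.9% to 78.0% of probes were well above background. The arrays were scanned on 2 days, with knockout 12, wild type 11 and wild type 12 on day 2 and knockout 1, knockout 11 and wild type 13 on day 1. Day 2 was also slide 3, while day 1 held slides 1 and 2, so day and slide cannot be told apart. The days also held different lungs, so a difference between those lungs or in their handling cannot be told apart from day either. Arrays scanned on the same day correlated at 0.972 to 0.994 over the genes tested (6 pairs) and arrays of different days at 0.950 to 0.965 (9 pairs), across genes, which are not independent replicates. The labels were checked with an Rtn4 probe for the transcript AK047982 (mm7 chromosome 11, 29649392 to 29649451, plus strand). Its signals were 8.06, 4.64 and 3.48 in knockouts 1, 11 and 12, where it was not well above background, against 200, 286 and 486 in wild types 11, 12 and 13, where it was. The brightest Rtn4 probe had signals of 4520, 998 and 314 in knockouts 1, 11 and 12, against 5274, 6517 and 12046 in wild types 11, 12 and 13, and a neighbouring probe ran between 278 and 4464 in knockouts and between 5155 and 12062 in wild types. Both were lower in every knockout than in every wild type and well above background in all 6 lungs, and whether they lie in the deleted part was not examined here. The remaining Rtn4 probe was well above background in wild type 13 only.

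The probes that carry the 6 genes were all well above background on all 6 arrays. The first 30 bases of each 60-base probe are shown here because a single probe stands for each gene, written 5′ to 3′ as in the array files and in lower case throughout.
Msln: tgggtaccaggggtcattgccaaagtttga
Muc16: cgtcatcgtctagcttattatttgtctcac
Upk3b: tcaccaagtgtactggttagagagtgtaaa
Upk1b: ctatataagacagaaagtttggagaatgga
Wt1: cactggtaagactgttcttaagtaacttaa
Lrrn4: ttatcaaagctgaacctgaatatgaatcac
On the mouse build mm7 of the array files, the probes lie on chromosome 17 for Msln (23931864 to 23931923, minus strand) and on chromosome 9 for Muc16 (18360158 to 18360217, minus strand). The Upk3b probe lies on chromosome 5 (135015932 to 135015991, plus strand) and the Upk1b probe on chromosome 16 (38483761 to 38483820, minus strand). Wt1 and Lrrn4 are both on chromosome 2, the Wt1 probe at 105024058 to 105024117 on the plus strand and the Lrrn4 probe at 132609607 to 132609666 on the minus strand. Exon and UTR annotation on this build was not used here. A second Muc16 probe (chromosome 9, 18424054 to 18424113) was well above background on only 2 of the 6 arrays and was not used.

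The first comparison set knockout against wild-type lungs. None of the 6 genes differed beyond the spread between lungs. All 6 had a lower mean in the knockout, by 0.10 to 0.64 on the log2 scale, but in every one of them the lungs of the 2 genotypes overlapped, and with scan day taken into account 4 of the 6 differences turned positive, while those of Wt1 and Lrrn4 were -0.09 and -0.06. Each gene had its low and its high lungs in both genotypes.

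Msln encodes mesothelin, a surface glycoprotein that is anchored in the membrane by a lipid. It measured 3.26, 3.37 and 5.48 in knockouts 1, 11 and 12, against 5.51, 4.93 and 3.31 in wild types 11, 12 and 13. Knockout 12 lay close to the highest wild type, and wild type 13 lay between the lower knockouts. The mean was 4.03 ± 1.25 in the knockout and 4.58 ± 1.14 in the wild type (SD, n = 3 each), a log2 difference of -0.55 (SE 0.80, 95% interval -2.49 to 1.40). Muc16, the large membrane mucin known as the antigen CA125 and a binding partner of mesothelin in human cells, measured -0.21, -0.02 and 2.80 in knockouts 1, 11 and 12, against 2.21, 1.73 and 0.56 in wild types 11, 12 and 13. The knockouts held both the highest and the 2 lowest lungs. Its log2 difference was -0.64 (SE 0.89, 95% interval -2.81 to 1.52).

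Uroplakins are membrane proteins best known from the plaques of the bladder surface, and Upk3b and Upk1b are also made by mesothelium. Upk3b measured 0.66, 0.59 and 2.84 in knockouts 1, 11 and 12, against 2.66, 2.07 and 0.86 in wild types 11, 12 and 13. As for Muc16, the highest lung and the 2 lowest were knockouts. The log2 difference of Upk3b was -0.50 (SE 0.75, 95% interval -2.32 to 1.31). Upk1b, a tetraspanin, measured 0.91, 1.15 and 1.93 in knockouts 1, 11 and 12, against 1.95, 1.74 and 0.60 in wild types 11, 12 and 13. Its groups overlapped across nearly their whole range, and its log2 difference was -0.10 (SE 0.44, 95% interval -1.18 to 0.97).

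Wt1, the zinc-finger transcription factor of the mesothelial lineage, measured -3.76, -4.31 and -2.33 in knockouts 1, 11 and 12, against -2.00, -2.70 and -3.83 in wild types 11, 12 and 13. Knockout 12 lay between the higher wild types, and wild type 13 between the lower knockouts. The log2 difference of Wt1 was -0.62 (SE 0.66, 95% interval -2.22 to 0.97). Lrrn4, a leucine-rich repeat membrane protein used as a mesothelial marker, measured -1.61, -1.70 and 0.27 in knockouts 1, 11 and 12, against 0.00, -0.27 and -1.14 in wild types 11, 12 and 13. Again the highest lung and the 2 lowest were knockouts, and the log2 difference was -0.54 (SE 0.60, 95% interval -2.02 to 0.93).

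**Figure D1:**
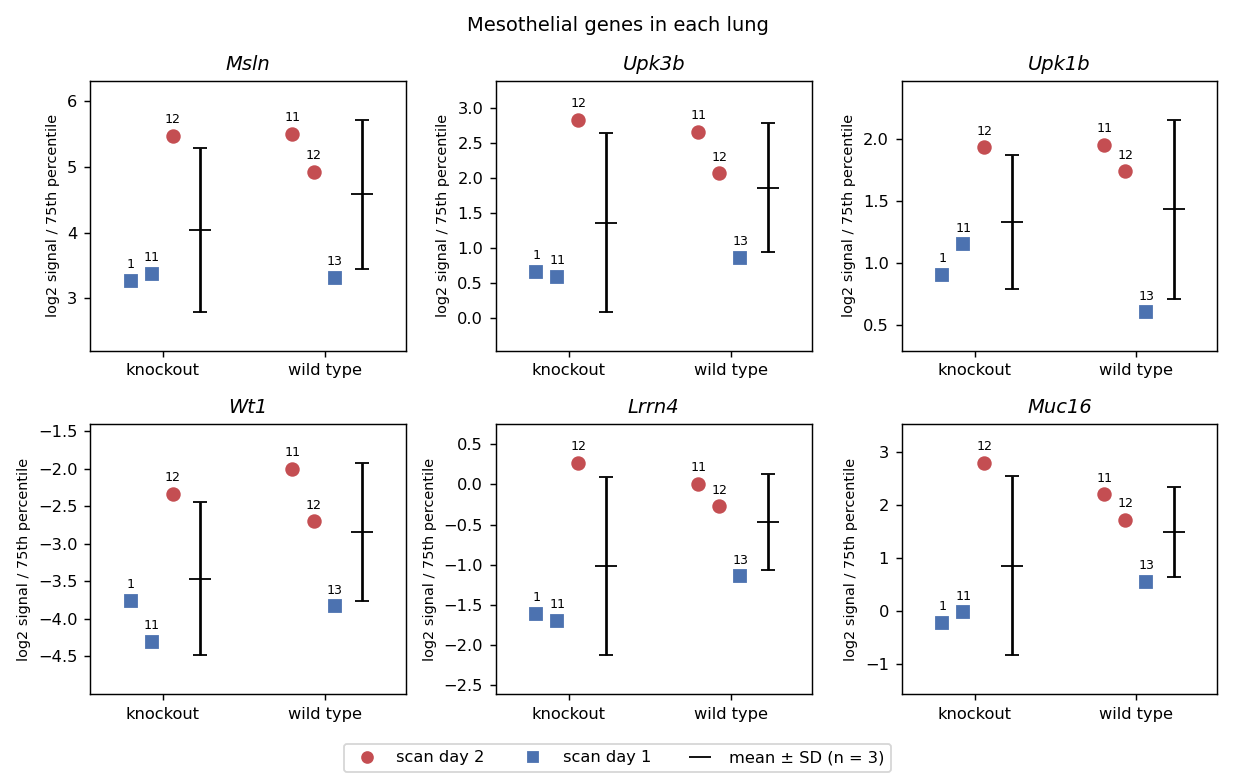
Log2 signal of each mesothelial gene relative to the 75th percentile of its array (vertical axes, 1 panel a gene) in 3 knockout and 3 wild-type lungs, with the number of each lung above its point, the scan day as colour and shape, and the mean ± SD beside each group. In each panel the 3 lungs of scan day 2 lie above the 3 of day 1, and the genotypes overlap.

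With limma, 0 of the 6 genes and 0 of all 20244 genes (0%) passed an adjusted p of 0.05 between knockout and wild type, and all 6 had an adjusted p of 0.9998. At an unadjusted p under 0.05, 0 of the 6 were called, against 191 genes (0.943%) in all, and their own p lay between 0.378 for Wt1 and 0.826 for Upk1b. All 6 lay on the lower side, where 47.8% of all genes lay, and 5 of them were lower by over 0.5, as were 4.5% of all genes. Groups that did not overlap were seen for 0 of the 6 and for 4% of all genes. The 6 are not independent counts, since all 6 were high and low in lungs of the same scan day. The median of the 6 differences was -0.55, beside 0.01 over all genes. In this fit, without scan day, the 95% interval of every gene reached below -1. A decrease of 1 on the log2 scale thus lay inside all 6 intervals.

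Scan day was then added to the model as a block, since both days held both genotypes. The differences became 0.13 (SE 0.21) for Msln, 0.08 (SE 0.38) for Muc16, 0.12 (SE 0.26) for Upk3b, 0.26 (SE 0.17) for Upk1b, -0.09 (SE 0.27) for Wt1 and -0.06 (SE 0.25) for Lrrn4. The direction of Msln, Muc16, Upk3b and Upk1b was therefore opposite to that of the fit without the block. The intervals were also narrower, -0.40 to 0.66 for Msln and -0.89 to 1.04 for Muc16, the widest of the 6. The lowest limit was that of Muc16, so -1 lay outside all 6 intervals in this fit. None of the 6 was called at an adjusted or an unadjusted p under 0.05, where the fit called 0 genes (0%) and 425 genes (2.1%). The smallest p of the 6 was 0.186, for Upk1b.

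Within a day the knockout differences pointed both ways. On day 2, where 1 knockout stood against 2 wild types, the differences were 0.26 for Msln, 0.83 for Muc16, 0.47 for Upk3b, 0.09 for Upk1b, 0.02 for Wt1 and 0.40 for Lrrn4, all of them positive. On day 1, where 2 knockouts stood against 1 wild type, they were 0.00 for Msln, -0.68 for Muc16, -0.24 for Upk3b, 0.42 for Upk1b, -0.20 for Wt1 and -0.51 for Lrrn4. None of the 6 was lower in the knockout on both days, as were 15% of all genes. The change of the knockout difference between days was 1.51 for Muc16 (SE 0.39, unadjusted p = 0.0185, limma adjusted p = 0.385) and 0.92 for Lrrn4 (SE 0.28, unadjusted p = 0.0323, limma adjusted p = 0.399). Neither passed the adjusted threshold, which 0 of all genes passed in this test, while 2338 genes (11.5%) had an unadjusted p under 0.05.

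**Figure D2:**
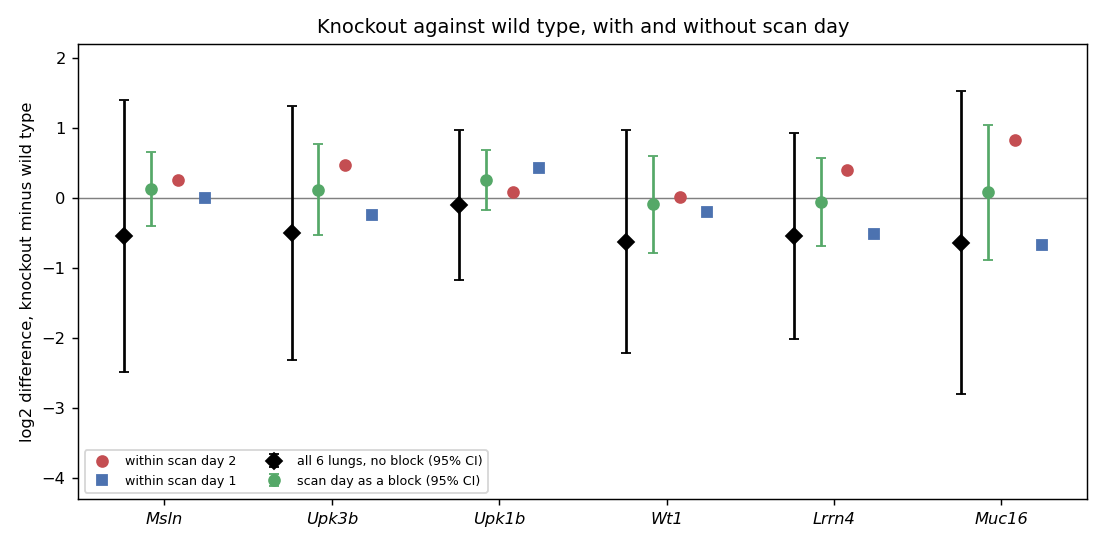
Log2 difference, knockout minus wild type, of each mesothelial gene over all 6 lungs without a block and with scan day as a block (95% intervals), and within scan day 2 and scan day 1 (points without error). Without the block all 6 points lie below 0, with it they lie between -0.09 and 0.26, and within the days they lie on both sides of 0.

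The lungs differed in these genes by scan day. All 6 were higher in the lungs of day 2 than in those of day 1, by 2.10-fold to 4.48-fold, and each of the 3 lungs of day 2 lay above each of the 3 of day 1 for every gene. The difference was found in both genotypes: knockout 12 was above knockouts 1 and 11, and wild types 11 and 12 were above wild type 13. Day 2 minus day 1, with genotype in the model, was 2.16 for Muc16 (SE 0.38, limma adjusted p = 0.0278), 2.04 for Msln (SE 0.21, limma adjusted p = 0.00650) and 1.86 for Upk3b (SE 0.26, limma adjusted p = 0.0139). It was 1.59 for Wt1 (SE 0.27, limma adjusted p = 0.0261), 1.47 for Lrrn4 (SE 0.25, limma adjusted p = 0.0248) and 1.07 for Upk1b (SE 0.17, limma adjusted p = 0.0198). The surface glycoproteins Muc16 and Msln had the highest values and the tetraspanin Upk1b the lowest, though the 95% intervals of Muc16 (1.20 to 3.13) and Upk1b (0.64 to 1.50) overlap.

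Against the whole array, the 6 of 6 called compare with 2223 genes (11%) called between the days, of which 456 (2.25%) were higher on day 2 and 1767 (8.73%) lower. Day groups that did not overlap, with day 2 higher, were seen for 6 of 6 and for 4044 genes (20%). A difference of over 1 in this direction was seen for 6 of 6 and for 396 genes (1.96%). The median difference of the 6 was 1.73, and that of all genes was 0.04. The 6 were called under each of the 5 other scalings and background corrections tried, while the median of all genes between days lay between -0.01 and 0.34 under them, the highest with scaling to the median of each array.

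The calls depended on single lungs. Without knockout 12, the only knockout of day 2, 0 of the 6 passed the adjusted threshold, and the difference of Muc16 was 1.41. Without wild type 11 only Msln passed. Without wild type 13, the only wild type of day 1, Lrrn4 and Muc16 passed, and without knockout 1 Msln and Upk3b passed. All but Upk1b passed without wild type 12, and all but Muc16 without knockout 11. Without any 1 of the 6 lungs, all 6 stayed higher on day 2. This had to follow, since in each genotype every day 2 lung lay above every day 1 lung. The lowest value was 0.90, for Upk1b without wild type 13.

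Whether the 6 genes move together beyond the day gap was not tested. The lungs fall into separate clusters by day, and with 3 lungs in each no correlation was computed within a day, so pooled correlations are not given. What can be described is how each lung deviated from the mean of its day. Wild type 12 was below its day mean for all 6 genes, by 0.14 for Upk1b to 0.52 for Muc16, and knockout 12 was above its day mean for all 6, by 0.01 for Wt1 to 0.56 for Muc16. On day 1 the genes split: wild type 13 was above the day mean for Muc16 by 0.45 and for Lrrn4 by 0.34, and below it for Upk1b by 0.28. Over the 6 lungs with the day means taken away, a description that shares libraries and has few degrees of freedom, Pearson's r of the 15 pairs had a median of 0.54. It was highest for Lrrn4 and Muc16 (0.95), and it was under 0 for the 3 pairs of Upk1b with Wt1, Lrrn4 and Muc16.

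**Figure D3:**
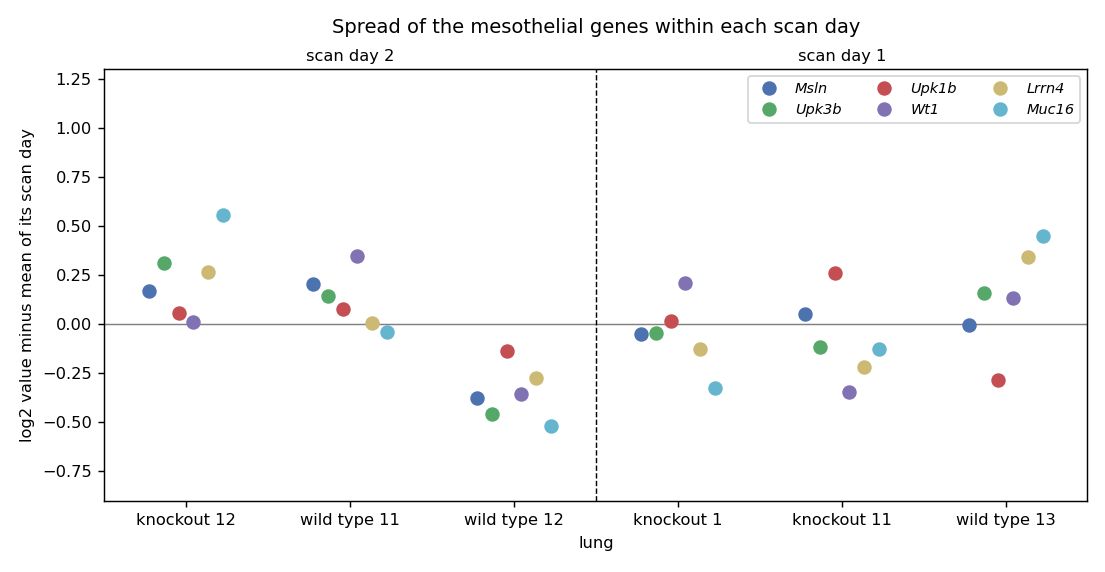
Log2 value of each mesothelial gene minus the mean of the 3 lungs of its scan day (vertical axis), for each lung (horizontal axis), with day 2 left of the dashed line and day 1 right of it. All 6 points lie below 0 in wild type 12 and above 0 in knockout 12, and Upk1b is on the other side of 0 from Muc16 and Lrrn4 in knockout 1, knockout 11 and wild type 13.

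The pattern of Upk1b was the least like the mean of the 6 genes, as a description. Its value relative to that mean had an SD of 0.47 over the lungs, the highest of the 6, against 0.10 for Upk3b, the lowest. Relative to that mean, day 2 minus day 1 was -0.69 for Upk1b, 0.46 for Muc16 and 0.32 for Msln. Upk3b, the closest by this SD, differed from the mean by 0.15 between days and -0.01 between genotypes, while Wt1 was closest between days, at -0.05. Upk1b and Upk3b share a name but belong to different protein families, and their values with the day means taken away had an r of 0.06.

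Other genes used as mesothelial markers were also compared between the days. Of 18 such genes 17 were measured (Prg4, lubricin, did not pass the filter on dim probes), and 15 of the 17 had differences above 0 between days, as did 54.1% of all genes. At an unadjusted p under 0.05, 13 of the 17 were higher, as were 12.2% of all genes. The adjusted p was passed by 9 of the 17, all of them higher, and the median was 0.86, beside 0.04 for all genes. Bnc1, a zinc-finger protein of mesothelium and other epithelia, was higher on day 2 by 2.41 (SE 0.28). Aldh1a2, which makes retinoic acid in mesothelium, was higher by 2.14 (SE 0.25), and Ildr2 by 1.80 (SE 0.18) and Sulf1, a heparan sulfate sulfatase, by 1.54 (SE 0.16). Dmkn (-0.02) and calretinin, Calb2 (-0.73, SE 0.40, well above background on 3 of the 6 arrays), had differences below 0, and neither passed.

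Between genotypes the same list gave no call. In the knockout 14 of the 17 had lower means and 3 higher, while 47.8% of all genes were lower. At an adjusted or unadjusted p under 0.05, 0 of the 17 were called, against 0% and 0.943% of all genes. The median was -0.21, beside 0.01 over all genes. With scan day as a block the median was 0.11. The smallest p belonged to Upk3bl, a uroplakin-3b-like gene, with -0.30 (SE 0.18) and -0.25 (SE 0.17) with the block. The others named by p were Calb2 at 0.48 (SE 0.45), Sulf1 at -0.55 (SE 0.61) and Anxa8 at -0.30 (SE 0.34), none of them called.

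**Figure D4:**
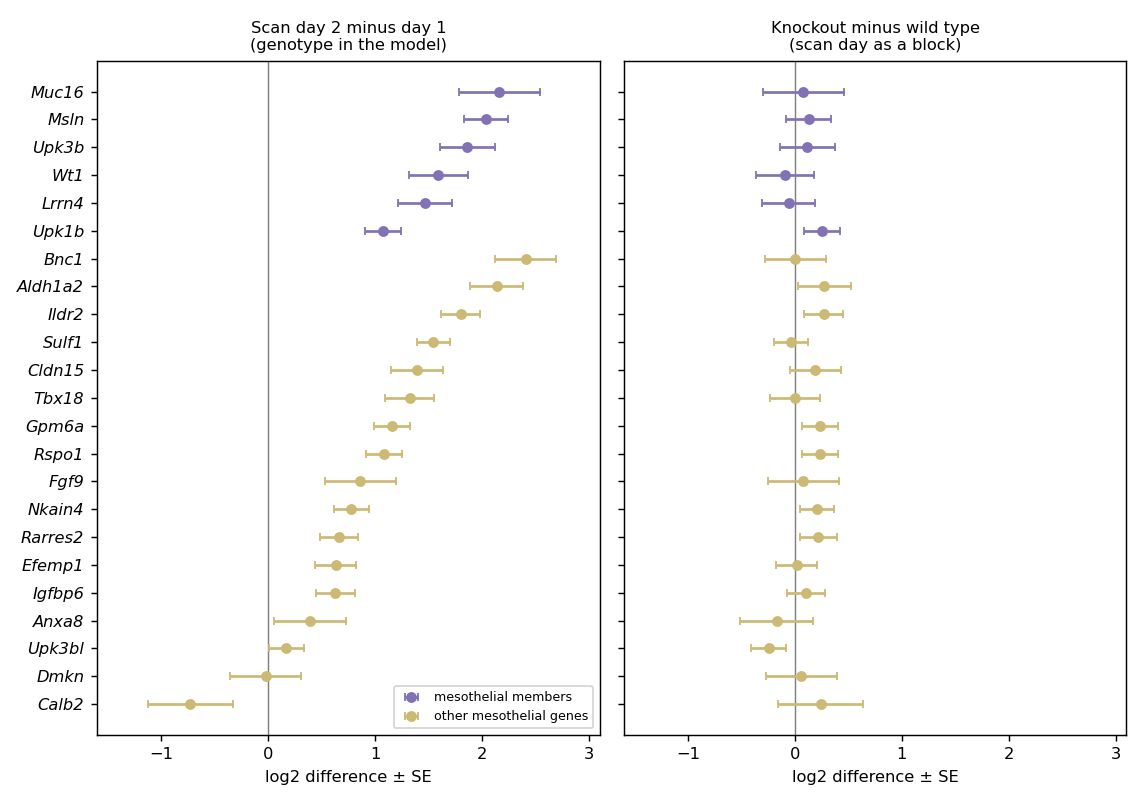
Log2 difference ± SE for the 6 mesothelial genes and for the 17 measured genes of the other mesothelial list, as scan day 2 minus day 1 with genotype in the model (left) and as knockout minus wild type with scan day as a block (right). The 6 genes lie between 1.07 and 2.16 on the left, with Bnc1 and Aldh1a2 among the highest of the list, and all points on the right lie between -0.25 and 0.28.

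Families and pathways related to the 6 genes were counted in the same way between days. The simple epithelial keratins Krt7, Krt8, Krt18 and Krt19 had differences above 0 in 4 of 4, against the same 54.1% of all genes, with 0 past the adjusted p and a median of 0.41. Krt19 differed by 0.68 (SE 0.17). Of the other uroplakins, all 3 measured, Upk1a differed by 1.45 (SE 0.51), Upk3a by 0.31 (SE 0.39) and Upk2 by -0.71 (SE 0.40), and none passed. Of 5 mesothelin relatives and membrane mucins 4 were measured, 1 higher and 3 lower, with 0 passing and a median of -0.09. Of 6 partners and targets of Wt1 5 were measured, with a median of 0.02 and 0 passing, and of 9 retinoid genes only Aldh1a2, counted above, passed.

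Markers of other cell types moved with the scan day as well, and their part in the result was not tested. All 8 cardiac muscle markers were lower on day 2, with a median of -2.95, beside 0.04 over all genes. In mouse lung the pulmonary veins carry a sleeve of cardiac muscle, and the source of these markers here was not tested. Of the 8, 7 passed the adjusted p, as did 8.73% of all genes in this direction. Actc1, a cardiac actin, had a difference of -2.60 (SE 0.16). The summed level of the 8 markers ran between 5.57 and 13.5 on day 2 and between 28.9 and 103 on day 1, in multiples of the 75th percentile. Smooth muscle markers were also lower, 4 of 5 past the adjusted p, against the same 8.73% of all genes. The median of the 5 was -1.28, with calponin (Cnn1) at -3.48 (SE 0.33). Their summed level ran between 18.3 and 25.4 on day 2 and between 51.5 and 66.8 on day 1. The sum of the 6 mesothelial genes ran the other way, between 42.3 and 63.8 on day 2 and between 14.3 and 15.4 on day 1.

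Adipocyte and skeletal muscle markers were also examined, and their part in the genotype result was not tested. Adipocyte markers had lower means in the knockout for 7 of 7 measured, as did 47.8% of all genes. At an unadjusted p under 0.05, 3 were called lower, as were 132 of all 20244 genes, and none passed the adjusted p. The 3 were adiponectin (Adipoq) at -2.72, Cfd at -2.77 and Retn at -2.03. The summed adipocyte level ran between 8.01 and 11.4 in knockouts and between 10.5 and 36.8 in wild types, so the groups overlapped over all 6 lungs. Within a day they did not. On day 2 it was 9.37 in knockout 12, against 28.7 and 10.5 in wild types 11 and 12. On day 1 it was 8.01 and 11.4 in knockouts 1 and 11, against 36.8 in wild type 13. On each day, 1 of the genotypes had only 1 lung. Of the 7 markers, 4 were lower in each knockout than in each wild type of its day, as were 1272 of all 20244 genes. With scan day as a block the median of the 7 was -2.46, and 4 were lower at an unadjusted p under 0.05, as were 265 of all genes. None passed the adjusted p. Skeletal muscle markers summed to 599 in knockout 1, against 1.35 to 11.6 in the other lungs. Of the 6 mesothelial genes, Msln and Muc16 were lowest in that lung. Upk3b, Wt1 and Lrrn4 were lowest in knockout 11 and Upk1b in wild type 13. The 5 markers of alveolar type 2 cells (Sftpc, Sftpb, Sftpa1, Abca3 and Lamp3) were well above background in all lungs, with a summed level between 378 and 636.

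The genes most like the 6 were named by a rule that took the 12 with the highest Pearson's r with the mean of the 6 over the lungs. The 3073 candidates were genes outside the 6 with a RefSeq symbol and an SD at least 0.5 times that of the mean. Names of clone or accession type were left out. The r values are a description over 6 lungs, they share libraries with the 6 genes and carry the day gap. None of the 12 was in the other mesothelial list. Sema3d, a secreted semaphorin, had r = 0.996 (0.924 with the day means taken away), Cdh3, P-cadherin, 0.995 (0.899) and Tmem151a 0.993 (0.930). The others were Acadsb, Pkhd1l1, Igfbp5, Tm4sf5, Gstt1, Zfp185, Ncoa4, Zmpste24 and Pcnx2, the last at 0.988 (0.755). Since the 12 were chosen by r with a mean that was higher on day 2, a day difference was built into the choice. Pkhd1l1 had the largest day difference of the 12, at 2.88 (SE 0.26). Igfbp5, an insulin-like growth factor binding protein, differed by 1.76 (SE 0.26) and Sema3d by 1.60 (SE 0.20).

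Promoters were searched as a description, and whether their sequence bears on the day difference was not tested. The 250 bases before the start of each gene were taken from RefSeq's mouse table (GRCm38.p6), which gave entries for 3 of the 6 genes, Upk3b, Lrrn4 and Muc16. The search covered both strands and 3 motifs, none of which contains another. GGAATG, a core bound by TEAD factors, was in Lrrn4 and, on the other strand, in Upk3b, and it was in 12.6% of all 32851 promoters of the table. The TATA box, searched as TATAAA, was in none of the 3 genes and in 12.4% of all promoters. The remaining motif was GCGTGGG, which Egr and Wt1 proteins can bind, and it was in none of the 3 genes and in 4.30% of all promoters. The 2 windows that held a match are shown, with the matched letters in capitals. Upk3b is chr5:136038246-136038495 (plus strand) and Lrrn4 chr2:132880863-132881112 (minus strand), both written 5′ to 3′ along the gene. A match is letters in a window and not a site.
Upk3b: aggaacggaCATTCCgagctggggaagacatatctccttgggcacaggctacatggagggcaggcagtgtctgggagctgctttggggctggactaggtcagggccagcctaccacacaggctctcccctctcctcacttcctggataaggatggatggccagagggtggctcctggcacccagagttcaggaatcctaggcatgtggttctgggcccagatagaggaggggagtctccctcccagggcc
Lrrn4: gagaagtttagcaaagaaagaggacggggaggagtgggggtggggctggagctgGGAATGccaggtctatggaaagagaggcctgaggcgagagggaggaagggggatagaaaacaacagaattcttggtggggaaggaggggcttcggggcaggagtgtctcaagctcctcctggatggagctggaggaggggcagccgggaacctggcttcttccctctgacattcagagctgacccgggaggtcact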

How the data were processed

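Total RNA of 6 mouse lungs was amplified, labelled with Cy3 and read on 1-colour Agilent arrays, per the labels' protocols. The deposited scanner files hold intensity values per spot, and per the file headers the processed signal had been background-subtracted and detrended with version 9.5.1.1 of Agilent's Feature Extraction (9.1 in the submitters' processing notes). The authors' series matrix holds log2 values per probe with nearly equal array medians, whose scaling is not stated in the labels or headers. It served as an alternative.

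Each array had 43379 non-control spots, of which 48 to 99 with outlier flags were removed. Replicate spots were averaged per probe, and 30 of 41174 probes were dropped, leaving 41144. Processed signals were taken to log2 without a pseudocount and centred on the array's 75th percentile. The 75th percentile signal ran between 1086 and 2343. Genes were named by accession, symbol or synonym through a RefSeq table (GRCm38.p6), which named 32706 probes, while 8438 kept the file's name. A gene's brightest probe was used if it was well above background on 3 or more arrays. Linear models used limma 3.58.1 under R 4.3.3 with eBayes moderation, and two-sided p-values were adjusted by Benjamini-Hochberg over the 20244 genes. The fits were tested on simulated data. Figures were drawn with matplotlib 3.10.9.

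Scan day and slide were read from the file headers. The 6 genes, the lists and the naming rule were chosen with earlier results of these data known. The rule named the 6 genes, the Rtn4 probes, up to 4 genes of each other list with the smallest p, and the 12 genes most like the mean of the 6. Between scan days the same rule was applied with the p of that comparison. Pair correlations over all 6 lungs are not reported, since the lungs fall into 2 clusters by day. Markers of thymocytes, liver, fibroblasts, lymphatic vessels, serosal macrophages, airway and endothelium were also listed. In these lists 5 genes passed the adjusted p between days (Sfrp2 and Cd5l higher on day 2, Pi16, Prox1 and Tie1 lower) and 0 between genotypes. Of all genes, 11% passed between days and 0% between genotypes. The genes measured were 3 of thymocytes, 2 of liver, 6 of fibroblasts, 4 of adventitial fibroblasts and 4 in each other list.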

Additional observations from a re-analysis of the deposited data

How the results depend on the processing

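The differences of the 6 genes between knockout and wild type passed no adjusted threshold under any of the alternatives. With scan day as a block, Msln (0.13), Upk3b (0.12), Upk1b (0.26) and Muc16 (0.079) changed direction, as did Upk1b with slide as a random block (0.11). On scan day 1 alone Msln was 0.0038, Upk1b 0.42 and Calb2 -0.31. On scan day 2 alone Msln was 0.26, Upk3b 0.47, Upk1b 0.088, Wt1 0.018, Lrrn4 0.40, Muc16 0.83 and Anxa8 0.54. Other settings gave larger decreases, none with an adjusted p under 0.05. With array weights Msln was -1.30, Upk3b -1.14, Upk1b -0.56, Wt1 -1.14, Lrrn4 -1.07 and Muc16 -1.39, a median of -1.14 against -0.55 here. Leaving out 1 array at a time, Msln ranged between -1.27 and -0.085, Upk3b between -1.24 and -0.10, Upk1b between -0.51 and 0.16, Wt1 between -1.19 and -0.20, Lrrn4 between -1.19 and -0.20 and Muc16 between -1.61 and -0.11. The median of the 6 ranged between -1.22 without knockout 12 and -0.15, and was -1.06 without wild type 13. Within a day the lone lung of a genotype is taken to vary as much as the pair of the other genotype. The cause of these changes was not tested.

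The change of the knockout difference of Wt1 between days, 0.22 here, was -0.15 with quantile normalization, -0.091 with normexp, -0.030 with median scaling and -0.053 with the authors' values. The number of genes past the adjusted p between genotypes, 0 here, was 1 with normexp, with the percentile over probes detected on all arrays, with the authors' values and with a trended, robust variance, and 2 with median scaling, slide as a block and array weights. With 1 array left out it ranged between 0 and 1. The number at an unadjusted p under 0.05, 191 here, was 425 with the scan day block, 723 with the slide block, 449 on day 1 alone, 3865 on day 2 alone and 4215 with array weights, and between 92 and 1473 with 1 array left out.

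Lungs numbered 11 and 12 occur in both genotypes, but no label says that a number marks a shared animal, litter or day, and with 2 such pairs pairing was not established. Deviations of the same-numbered lungs from their group means correlated at -0.25 for number 11, scanned on different days, and 0.42 for number 12, both scanned on day 2. With the replicate block 631 genes had an unadjusted p under 0.05, and Anxa8 was 0.051. The block gave none of the 6 genes an adjusted p under 0.05.

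Between scan days, the number of genes past the adjusted p was 3649 with median scaling, against 2223 here, and between 623 and 2461 with 1 array left out. The number of the 6 genes past it was then between 0 and 5. Their differences with 1 array left out ranged between 1.91 and 2.18 for Msln, 1.50 and 2.22 for Upk3b, 0.90 and 1.24 for Upk1b, 1.46 and 1.76 for Wt1, 1.01 and 1.92 for Lrrn4, and 1.41 and 2.92 for Muc16. All stayed above 0, which had to follow from day groups that did not overlap.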
